A study of Saccharomyces cerevisiae with 4 samples.

Results

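The genes of sulfate assimilation and sulfur amino acid metabolism were examined in a haploid strain of *Saccharomyces cerevisiae*, labelled FM391, with *SOD1* deleted (sod1Δ) and in its wild type form. *SOD1* encodes the copper-zinc superoxide dismutase. Cultures in early log phase, at an OD600 of about 0.4 and 30 °C in synthetic complete medium without leucine, received 0.4 mM H2O2 for 20 min or no H2O2. There was 1 Affymetrix array for each of treated sod1Δ, untreated sod1Δ, treated wild type and untreated wild type, 4 arrays in all. The 37 members were the genes of a list of pathway symbols, out of 5449 *S. cerevisiae* genes on the array. Each of the 37 was measured by 1 probe set. With 1 array per group no difference below has a replicate check or a test, and each compares arrays rather than populations of cultures. A gene is called higher or lower where its signal differed at least 2-fold between both arrays of a comparison, which is a difference of 1 on the log2 scale.

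Yeast takes up sulfate, activates it with ATP, reduces it through sulfite to sulfide with NADPH, and joins the sulfide to acetylated homoserine to make homocysteine. Homocysteine is methylated to methionine, which feeds S-adenosylmethionine, or is turned into cysteine by transsulfuration, which in turn supplies glutathione. The activator Met4 controls most of these genes. It is carried to DNA by Cbf1 with Met28 or by Met31 and Met32, and the ubiquitin ligase subunit Met30 holds it back when sulfur compounds are plentiful. Yeast without Sod1 is known to need added methionine or cysteine for growth in air.

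Levels are the authors' deposited log2 signals, in which a background floor of 2.31 was set by probe sets for *Schizosaccharomyces pombe*, a yeast that was not in the samples. *SOD1* itself was at 2.42 in treated and 2.40 in untreated sod1Δ, against 14.31 in treated and 14.21 in untreated wild type, as the labels say. *SRX1*, a gene known for its induction by peroxide, was at 12.70 in treated and 2.66 in untreated sod1Δ, and at 12.81 in treated and 2.42 in untreated wild type. Of the mating type markers, *MFA1* of the a type lay between 11.60 and 12.30, while *MF(ALPHA)1* of the alpha type lay between 2.18 and 2.22. The alpha type genes *MF(ALPHA)2* and *STE3* were above the floor on all 4 arrays, from 6.72 to 8.88. For precision, 42 genes with a pair of probe sets gave an SD per probe set of 0.45 for the strain difference after H2O2 and 0.31 untreated, and of 0.59 for the H2O2 response in sod1Δ and 0.51 in wild type. This spread is between probe sets of a gene in a difference of the same arrays, and it leaves out the spread between cultures and labellings.

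**Figure D1:**
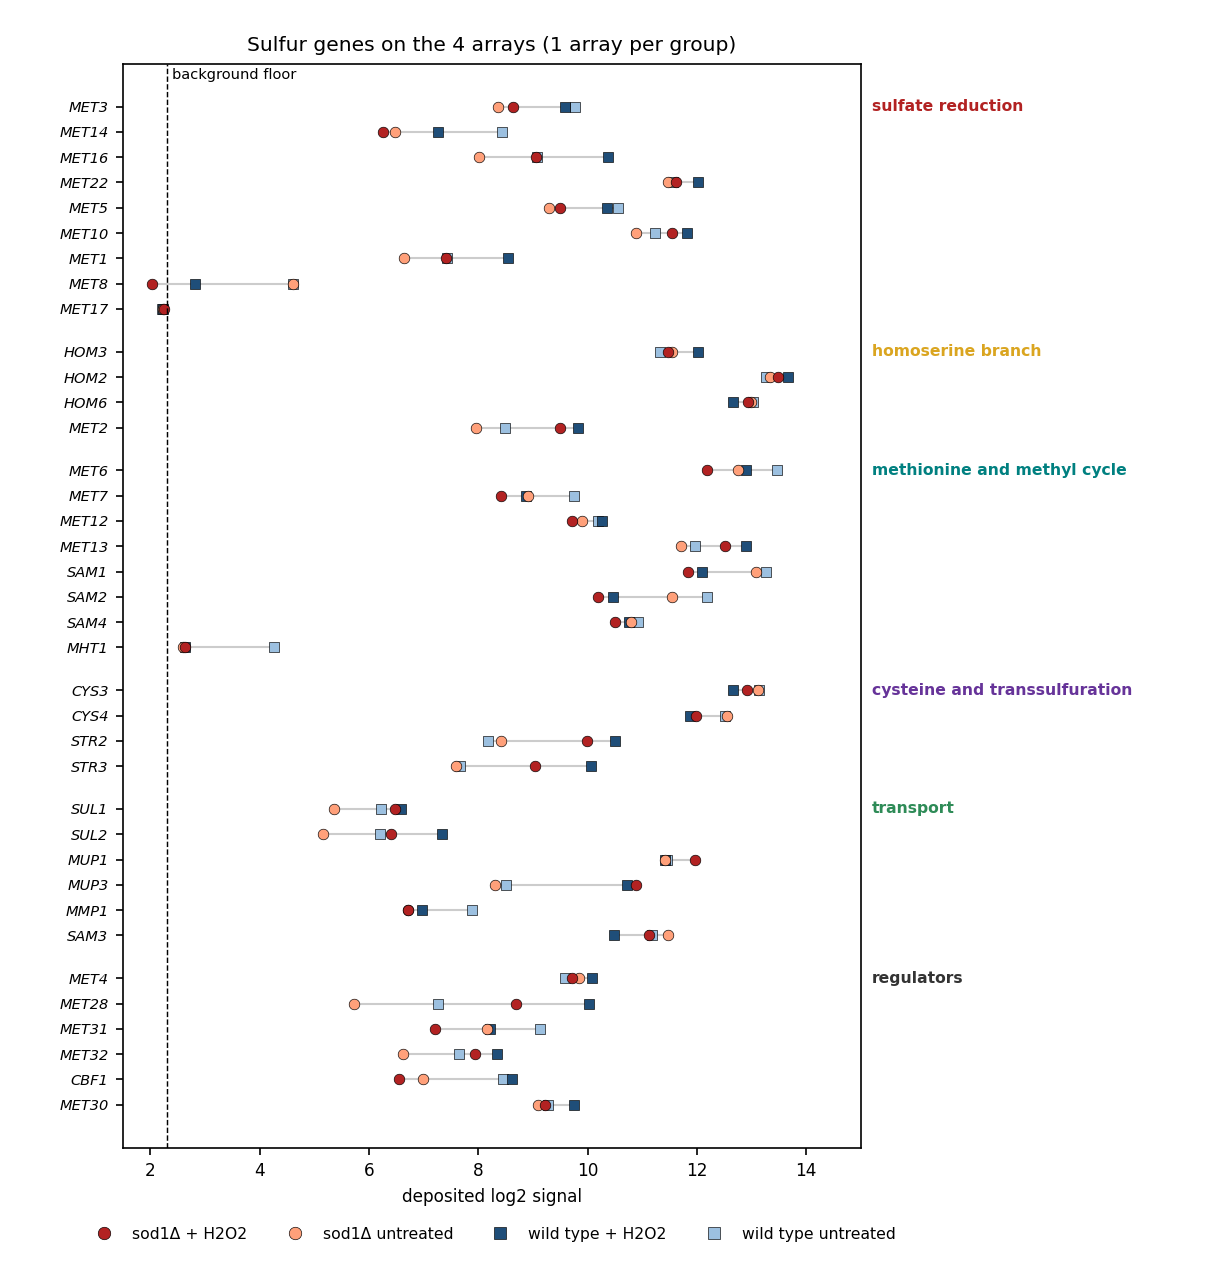
Deposited log2 signal (x axis) of the 37 members, by role in the pathway, on the 4 arrays. Circles are sod1Δ and squares wild type, dark for H2O2 and pale for untreated, and each point is 1 array. The dashed line is the background floor of 2.31, and *MET17* lies left of it on every array. *CBF1*, *MET3*, *MET5* and *MET14* are among the members with both sod1Δ arrays below both wild type arrays.

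Sulfate reduction held 9 members. *MET3*, which encodes the ATP sulfurylase that activates sulfate, was at 8.64 in treated and 8.36 in untreated sod1Δ, against 9.59 in treated and 9.77 in untreated wild type. For *MET14*, the kinase gene of the next step, the levels were 6.26 in treated and 6.47 in untreated sod1Δ, against 7.26 in treated and 8.43 in untreated wild type. Both genes lay below their wild type levels on each sod1Δ array. *MET14* was thus 3.90-fold lower in untreated sod1Δ than in untreated wild type, and *MET3* 2.65-fold lower. After H2O2 the strain differences were -1.00 for *MET14*, which fell short of the 2-fold threshold by less than the rounding, and -0.95 for *MET3*.

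*MET16*, the gene of the reductase that makes sulfite, was at 9.05 in treated and 8.00 in untreated sod1Δ, and at 10.36 in treated and 9.08 in untreated wild type. It was lower in sod1Δ in both conditions and higher after H2O2 in both strains, so that treated sod1Δ stood where untreated wild type did. The sulfite reductase that follows has a beta subunit encoded by *MET5* and an alpha subunit encoded by *MET10*. *MET5* had 9.50 in treated and 9.29 in untreated sod1Δ, against 10.36 in treated and 10.55 in untreated wild type. *MET10* had 11.54 in treated and 10.88 in untreated sod1Δ, against 11.81 in treated and 11.23 in untreated wild type. The strain difference of the subunit genes was -0.86 for *MET5* and -0.28 for *MET10* after H2O2, and -1.26 and -0.35 in the same order untreated.

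Sulfite reductase needs siroheme, which is made by the enzymes of *MET1* and *MET8*. *MET1* was at 7.40 in treated and 6.63 in untreated sod1Δ, against 8.54 in treated and 7.42 in untreated wild type. It therefore had the same shape over the 4 arrays as *MET16*, with a strain difference of -1.14 after H2O2 and -0.79 untreated. *MET8* went the other way with H2O2, at 2.02 in treated and 4.62 in untreated sod1Δ and at 2.81 in treated and 4.62 in untreated wild type. Its level in treated sod1Δ was under the floor, so *MET8* was at least 4.95-fold lower with H2O2 in sod1Δ and 3.50-fold lower in wild type, in a range where the deposited signal stretches folds. *MET22*, whose product clears the nucleotide left over by sulfate reduction, stayed within 2-fold in all 4 comparisons, between 11.47 and 12.02.

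*MET17* (also called *MET15*), the gene of the enzyme that fixes sulfide into homocysteine, read at background on all 4 arrays, from 2.21 to 2.26. Auxotrophic laboratory strains often carry a deletion of this gene, and the labels do not give the genotype of FM391 at this locus. Since every group shares this reading, the arrays give no comparison for the step, and *MET17* enters no count below. For the other 8 members of sulfate reduction the median strain difference was -0.90 after H2O2, with all 8 below 0, and -0.93 untreated, with 7 of 8 below 0.

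The homoserine branch supplies the carbon chain that accepts the sulfide. The aspartate kinase gene *HOM3* had 11.47 in treated and 11.55 in untreated sod1Δ, against 12.02 in treated and 11.33 in untreated wild type. *HOM2* and *HOM6*, which encode the dehydrogenases that follow, stayed within 2-fold in all 4 comparisons, from 13.26 to 13.66 and from 12.66 to 13.02. *MET2*, the gene of the acetyltransferase that commits homoserine to methionine, differed from them. It was at 9.49 in treated and 7.96 in untreated sod1Δ, and at 9.82 in treated and 8.48 in untreated wild type. H2O2 thus went with a 2.89-fold higher level in sod1Δ and a 2.52-fold higher level in wild type, and the strain difference was -0.33 after H2O2 and -0.52 untreated. No gene of this branch was called between the strains, where its medians were -0.25 after H2O2 and 0.02 untreated.

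Methionine synthesis and the methyl cycle held 8 members, whose H2O2 responses differed in direction. *SAM1* and *SAM2* encode the S-adenosylmethionine synthetases. *SAM1* was at 11.84 in treated and 13.09 in untreated sod1Δ, and at 12.09 in treated and 13.25 in untreated wild type. *SAM2* was at 10.19 in treated and 11.54 in untreated sod1Δ, and at 10.47 in treated and 12.17 in untreated wild type. Both were lower after H2O2 in both strains, by -1.25 and -1.16 for *SAM1* and by -1.35 and -1.71 for *SAM2* in sod1Δ and wild type. They are close paralogues, and cross-hybridization between their probe sets was not tested.

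*MET13*, which encodes the main methylenetetrahydrofolate reductase that supplies the methyl group, had 12.52 in treated and 11.70 in untreated sod1Δ, against 12.89 in treated and 11.97 in untreated wild type. Its H2O2 responses of 0.81 in sod1Δ and 0.93 in wild type were short of the threshold. The methionine synthase gene *MET6* had 12.18 in treated and 12.76 in untreated sod1Δ, against 12.89 in treated and 13.47 in untreated wild type. Strain and H2O2 each went with a shift of its level in the same direction, of -0.71 between strains in both conditions and of -0.58 with H2O2 in both strains. *MET7*, which encodes the enzyme that lengthens folate side chains, had the same directions, with strain differences of -0.46 after H2O2 and -0.84 untreated. *MET12*, the gene of a second reductase, and *SAM4*, which encodes a homocysteine methyltransferase, were within 2-fold in every comparison, at 9.71 to 10.27 and 10.50 to 10.92.

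*MHT1* encodes the methyltransferase that uses S-methylmethionine, and it stood apart from its group. It was at 2.64 in treated and 2.61 in untreated sod1Δ, and at 2.63 in treated and 4.26 in untreated wild type. All of its differences came from the 1 array of untreated wild type, and the other 3 arrays were near the floor. *MMP1*, the gene next to *MHT1* in the gene order of the RefSeq table, encodes the S-methylmethionine permease. Its levels were 6.71 in treated and 6.72 in untreated sod1Δ, against 6.97 in treated and 7.89 in untreated wild type. This neighbour was also highest in untreated wild type, with strain differences of -0.26 after H2O2 and -1.18 untreated.

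The cysteine group holds genes for both directions between homocysteine and cysteine, and flux itself was not measured. *CYS4* and *CYS3*, whose products turn homocysteine into cysteine, stayed within 2-fold in all 4 comparisons. *CYS3* had 12.91 in treated and 13.11 in untreated sod1Δ, against 12.67 in treated and 13.14 in untreated wild type. *CYS4* had 11.98 in treated and 12.55 in untreated sod1Δ, against 11.87 in treated and 12.52 in untreated wild type.

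*STR2* and *STR3*, whose products run from cysteine to homocysteine, were both higher after H2O2. *STR2* was at 9.99 in treated and 8.42 in untreated sod1Δ, and at 10.50 in treated and 8.17 in untreated wild type. *STR3* was at 9.04 in treated and 7.60 in untreated sod1Δ, and at 10.06 in treated and 7.67 in untreated wild type. That made *STR3* 2.72-fold higher with H2O2 in sod1Δ and 5.27-fold higher in wild type, and *STR2* 2.97-fold higher in sod1Δ and 5.00-fold higher in wild type. The untreated strains differed by -0.07 for *STR3* and 0.25 for *STR2*, and the treated strains by -1.02 and -0.51 in that order. After quantile normalization *STR3* was no longer called between the treated strains.

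Transport held 6 members. The sulfate permease gene *SUL1* was at 6.48 in treated and 5.37 in untreated sod1Δ, and at 6.59 in treated and 6.21 in untreated wild type. Its paralogue *SUL2* was at 6.41 in treated and 5.15 in untreated sod1Δ, and at 7.34 in treated and 6.19 in untreated wild type. Both had their lowest level in untreated sod1Δ. Of the methionine permease genes, the low-affinity *MUP3* had 10.89 in treated and 8.31 in untreated sod1Δ, against 10.72 in treated and 8.51 in untreated wild type. It was 5.97-fold higher with H2O2 in sod1Δ and 4.63-fold higher in wild type, with strain differences of 0.17 after H2O2 and -0.20 untreated. The high-affinity *MUP1* had 11.95 in treated and 11.42 in untreated sod1Δ, against 11.41 in treated and 11.46 in untreated wild type. *SAM3*, which encodes the S-adenosylmethionine permease and lies next to *SAM4*, was between 10.48 and 11.47. *MUP1* and *SAM3* had the 2 highest strain differences of all members after H2O2, 0.54 and 0.63, and neither was called.

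Among the 6 regulators, *CBF1* and *MET28* were called between the strains in both conditions. *MET31* was called only after H2O2 and *MET32* only untreated, and neither call was kept after quantile normalization. *CBF1*, the gene of the helix-loop-helix protein that binds the promoters of this pathway and centromeres, was at 6.55 in treated and 6.98 in untreated sod1Δ, against 8.62 in treated and 8.45 in untreated wild type. It was 4.22-fold lower in treated sod1Δ than in treated wild type and 2.77-fold lower untreated. *MET28*, which encodes a cofactor of Cbf1 and Met4, was at 8.70 in treated and 5.73 in untreated sod1Δ, against 10.02 in treated and 7.27 in untreated wild type. It had the largest increase with H2O2 of the 37, 7.81-fold in sod1Δ and 6.77-fold in wild type, and was also lower in sod1Δ by 2.51-fold after H2O2 and 2.89-fold untreated.

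The zinc finger genes *MET31* and *MET32* had H2O2 responses of opposite sign, of which only that of *MET32* in sod1Δ passed 2-fold. *MET31* had 7.21 in treated and 8.17 in untreated sod1Δ, against 8.21 in treated and 9.13 in untreated wild type. *MET32* had 7.93 in treated and 6.63 in untreated sod1Δ, against 8.35 in treated and 7.65 in untreated wild type. With H2O2 *MET31* differed by -0.96 in sod1Δ and -0.92 in wild type, and *MET32* by 1.31 and 0.69. Both lay below the wild type array of the same condition in sod1Δ, *MET31* by -1.01 after H2O2 and -0.97 untreated, and *MET32* by -0.41 and -1.03. *MET4* itself lay between 9.59 and 10.09 and *MET30* between 9.09 and 9.75, with strain differences of -0.38 and -0.53 after H2O2 and of 0.24 and -0.18 untreated.

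Between the strains, the called members all lay lower in sod1Δ. After H2O2, 6 of the 36 members above the floor were lower and 0 higher. Of all genes tested, 6.33% were lower and 3.07% higher, and after quantile normalization 4.03% and 4.31%. The 6 were *CBF1*, *MET28*, *MET16*, *MET1*, *STR3* and *MET31*, and quantile normalization left *CBF1*, *MET28* and *MET16*, with *MET1*, *STR3* and *MET31* short of 2-fold at -0.97, -0.98 and -0.85. Untreated, 10 of 36 were lower and 0 higher, where 3.18% of all genes were lower and 3.71% higher, and after quantile normalization 2.41% and 4.29%. These were *MET14*, *MHT1*, *MET28*, *CBF1*, *MET3*, *MET5*, *MMP1*, *MET16*, *SUL2* and *MET32*. Quantile normalization and median centring each left 9 of them, with *MET32* short of 2-fold at -0.89 and -0.99. With 32 added to the linear signal, so that dim genes weigh less, *MET3*, *MET14*, *MET5*, *MET28* and *CBF1* were still called untreated. These are 5 of 36, where 1.33% of all genes were lower. After H2O2 the same setting left 4 of 36, without *STR3* and *MET31*, where 2.9% of all genes were lower.

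Signs were also counted over differences of any size. Of the 36 members, 29 were below 0 after H2O2 and 29 untreated, against 55% and 57.7% of all genes. These counts include the 6 members called lower after H2O2 and the 10 called lower untreated, so they are not separate from the calls. The member medians were -0.41 and -0.33, and those of all genes tested -0.05 and -0.07. Separate arrays gave the strain differences after H2O2 and untreated. In both, 24 of 36 members were below 0, where 43.1% of all genes were, and 2 members, *CYS4* and *SAM3*, were above 0. *CYS4* untreated, at 0.03, was at -0.03 after quantile normalization. The genes called lower in both were *MET16*, *MET28* and *CBF1*. These 3 are part of the 6 called after H2O2 and of the 10 called untreated, and 1.39% of all genes were lower in both conditions. Over the 36 members the strain differences had a Pearson r of 0.56 and a Spearman rho of 0.50, and over 5320 genes 0.64 and 0.61, as descriptions in which genes are not independent.

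Hybridization controls, bacterial and phage transcripts that are added to each sample and do not come from yeast, give a technical comparison of the same arrays. The 18 control probe sets above 6 on all 4 arrays differed by a median of 0.28 between treated sod1Δ and treated wild type, with all 18 above 0. Between the untreated strains their median was -0.22, from -0.85 to -0.02, with all 18 below 0. Control probe sets read on the same arrays share any offset of those arrays, so the 18 signs are not 18 independent checks. The controls thus differed in the same direction as the members untreated, and in the other direction after H2O2, where the members were lower on the sod1Δ array while the controls were higher. Their part in the strain difference was not tested in either condition. Of 19 members with a mean level from 6 to 10, 31.6% were lower in sod1Δ after H2O2 and 47.4% untreated, where all genes of that level had 6.94% and 3.33%. That range holds every member called between the strains except *MHT1*. Over the 36 members the shares were 16.7% and 27.8%.

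**Figure D2:**
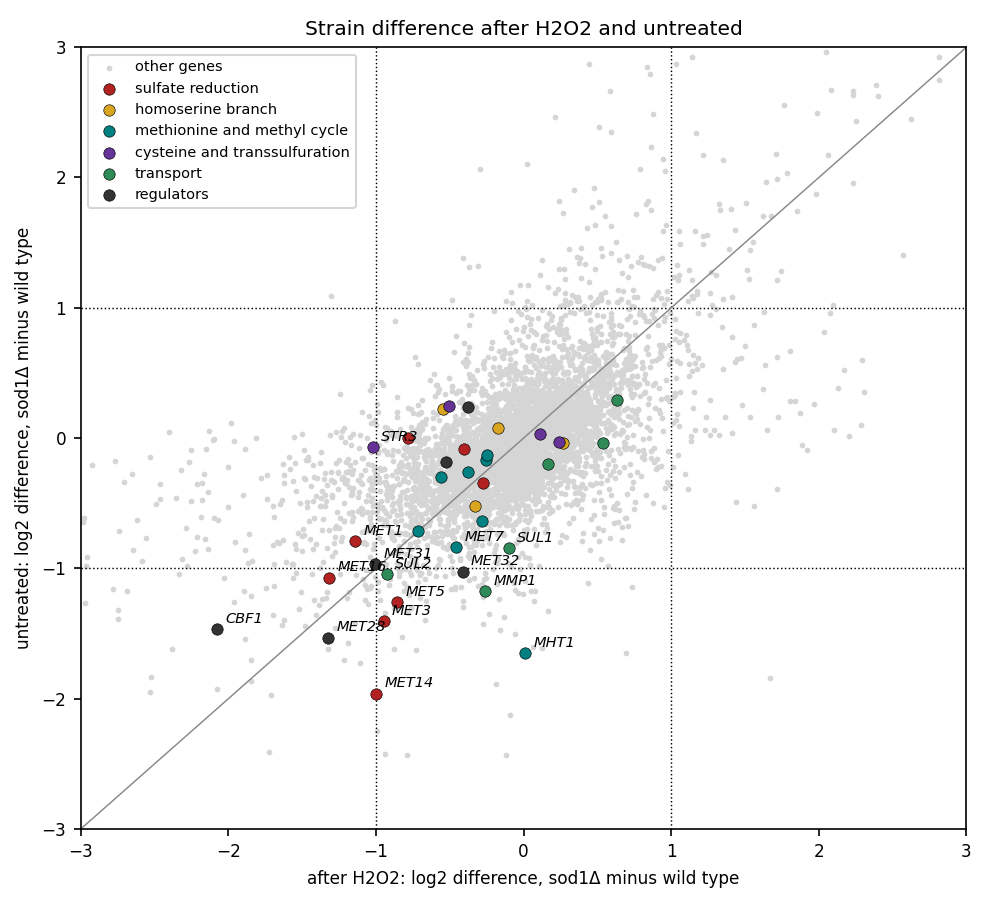
Log2 difference of sod1Δ minus wild type after H2O2 (x axis) and untreated (y axis) for the 36 members above the floor, coloured by role, over all other genes tested in grey. Dotted lines mark 2-fold and the diagonal marks equal differences; *CBF1*, *MET28* and *MET16* lie beyond 2-fold on both axes at lower left, no member lies beyond 2-fold on the higher side, and 41 other genes fall outside the axes.

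H2O2 was compared with no treatment within each strain. Each array enters 2 of the 4 comparisons, so a response and a strain difference of a gene share an array. In sod1Δ 9 of 36 members were higher and 3 lower, where 14.6% of all genes were higher and 15.8% lower. In wild type 8 of 36 were higher and 5 lower, where 17.1% of all genes were higher and 16.1% lower. As shares of the members these are 25% and 8.33% in sod1Δ and 22.2% and 13.9% in wild type. Of the 19 members with a mean level from 6 to 10, 47.4% were higher and 0 lower in sod1Δ, where all genes of that level had 18.1% and 19.1%. In wild type 42.1% were higher and 5.26% lower, where all genes of that level had 19.8% and 19.5%. This range holds every member called higher. It leaves out *MET8*, *MHT1*, *SAM1* and *SAM2*, which were called lower and had mean levels of 3.52, 3.03, 12.57 and 11.09. The medians over the 36 were 0.08 in sod1Δ and 0.13 in wild type, against -0.03 over all genes in each. The 18 hybridization controls had a median response of 0.11 in sod1Δ, with 15 above 0. In wild type their median was -0.44, from -1.40 to 0.01, with 17 below 0, and their part in the responses was not tested.

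The genes that were higher in both strains were *MET28*, *MUP3*, *STR2*, *STR3*, *MET2*, *MET16* and *SUL2*, and those lower in both were *MET8*, *SAM2* and *SAM1*. The 7 higher genes are 7 of the 9 called in sod1Δ and of the 8 called in wild type. *MET32* and *SUL1* passed the threshold in sod1Δ, and *MET1* in wild type. With 32 added to the linear signal, *MET8* was no longer called in either strain, at -0.65 in sod1Δ and -0.53 in wild type, nor was *SUL2*, at 0.79 and 0.88. *MET16* then missed the threshold in sod1Δ, at 0.96, as did *SUL1* in sod1Δ and *MET1* and *MHT1* in wild type. *MET14* and *MHT1* were lower in wild type, with responses of -1.17 and -1.63, and their responses in sod1Δ were -0.21 and 0.03. By group, the median response of the cysteine genes was 0.62 in sod1Δ and 0.92 in wild type, and that of the methionine and methyl cycle genes was -0.39 and -0.73. Sulfate reduction had medians of 0.24 in sod1Δ and 0.14 in wild type, with members from -2.60 to 1.29.

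**Figure D3:**
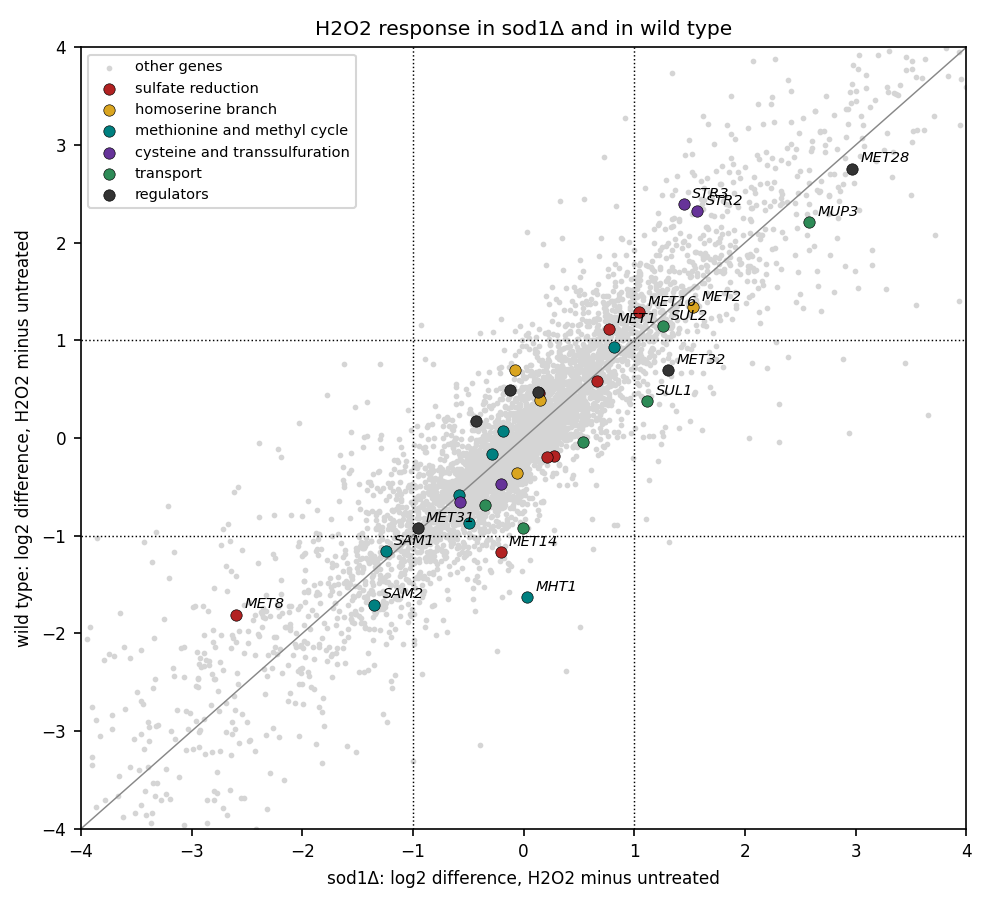
Log2 difference of H2O2 minus untreated in sod1Δ (x axis) and in wild type (y axis) for the 36 members above the floor, coloured by role, over all other genes tested in grey. Most members lie near the diagonal of equal responses, with *MET28* at 2.96 and 2.76; *MHT1* and *MET14* lie below the diagonal, with values near 0 in sod1Δ and beyond 2-fold lower in wild type, and 177 other genes fall outside the axes.

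The study's design text sought genes whose induction by H2O2 lost more than 50% without *SOD1*. Taken as a fold in sod1Δ under 50% of the fold in wild type, 0 of the 8 members induced in wild type met this, near the 10.9% of all genes induced in wild type. With the strains exchanged, 0 of the 9 members induced in sod1Δ met it, where 7.54% of induced genes did. Taken instead as the increase over untreated, a reading chosen after seeing the data, *STR3* and *STR2* met it, with 40.4% and 49.2% of the wild type increase in sod1Δ. These are 2 of 8, where 27.4% of all genes induced in wild type met it. With the strains exchanged, *SUL1* and *MET32* met it, 2 of 9, where 12.9% of all genes induced in sod1Δ did. *STR3* had responses of 1.45 in sod1Δ and 2.40 in wild type. The response in sod1Δ minus that in wild type lay between -0.95 and 1.66 over the 36 members, with a median of 0.08. Only *MHT1* passed 2-fold in it, and it passed through the single array described above. Of all genes, 2.67% were above and 4.03% below. All 6 transport genes were above 0 in this difference, from 0.11 for *SUL2* to 0.92 for *MMP1*, where 52.1% of all genes were below 0. With 32 added to the linear signal *SUL2* was at -0.09, so that 5 of 6 were above 0. The hybridization controls had a median of 0.54 in it, with all 18 above 0, and their part in the transport values was not tested. Across genes the responses of the strains had an r of 0.88 over the 36 members and 0.93 over 5334 genes.

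A list of 24 other sulfur-linked genes, of which 23 had an annotated probe set, was described in the same way. *YCT1*, which encodes a cysteine transporter, had a larger increase with H2O2 than any member in both strains. It was at 11.31 in treated and 6.89 in untreated sod1Δ, and at 10.55 in treated and 6.10 in untreated wild type. *GSH1*, the gene of the first enzyme of glutathione synthesis, had responses of 2.83 in sod1Δ and 2.96 in wild type. The sulfonate dioxygenase gene *JLP1* had 1.94 and 2.72, and the permease gene *AGP3* had 1.98 and 2.08. These 4 of 23 were the genes called higher in each strain, close to the 14.6% of all genes in sod1Δ and 17.1% in wild type. *JLP1* and *YCT1* lie near *MMP1* in gene order, with 2 and 4 genes in between.

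Of the same 23 genes, 3 were lower with H2O2 in sod1Δ and 5 in wild type, where 15.8% and 16.1% of all genes were. *IRC7*, which encodes a beta-lyase acting on sulfur amino acids, had responses of -2.36 in sod1Δ and -1.74 in wild type. *MEU1*, a gene of methionine salvage, had -1.61 and -1.47, and *DUG3*, a gene of glutathione breakdown, had -1.34 and -1.78. *MRI1* of methionine salvage and the glutathione transporter gene *OPT1* were lower in wild type, at -1.19 and -1.09, with -0.59 and -0.34 in sod1Δ.

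Between the strains 1 gene of this list was called. After H2O2, 1 of 23 was lower in sod1Δ, the dim sulfatase gene *BDS1* at 3.76 against 4.99 in wild type, and 0 were higher. Untreated, 0 of 23 were lower and 0 higher. The medians were -0.08 after H2O2 and -0.21 untreated. The 4 genes of the other subunits of the Met30 ubiquitin ligase and its partner enzyme stayed within 2-fold in every comparison.

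For comparison with other amino acid pathways, 9 genes of lysine, 7 of arginine and 10 of branched-chain synthesis were measured. Their median strain differences were 0.02, -0.25 and -0.10 after H2O2 and 0.13, 0.25 and 0.15 untreated. Untreated, 0 genes of these lists were called in either direction, and after H2O2 *ARG2* and *LEU9* were lower in sod1Δ. The sulfate reduction and regulator medians, at -0.90 and -0.77 after H2O2 and -0.93 and -1.00 untreated, were below the median of every one of these lists. So were those of the methionine and methyl cycle genes, at -0.33 after H2O2 and -0.47 untreated. The homoserine, cysteine and transport medians were below every list untreated only, at 0.02, 0.00 and -0.52. After H2O2 they were -0.25, -0.20 and 0.03, and none was below the arginine median. The lists were not matched in level, and most genes of the comparison lists were brighter than the members called between the strains. No test of the lists against each other was made.

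**Figure D4:**
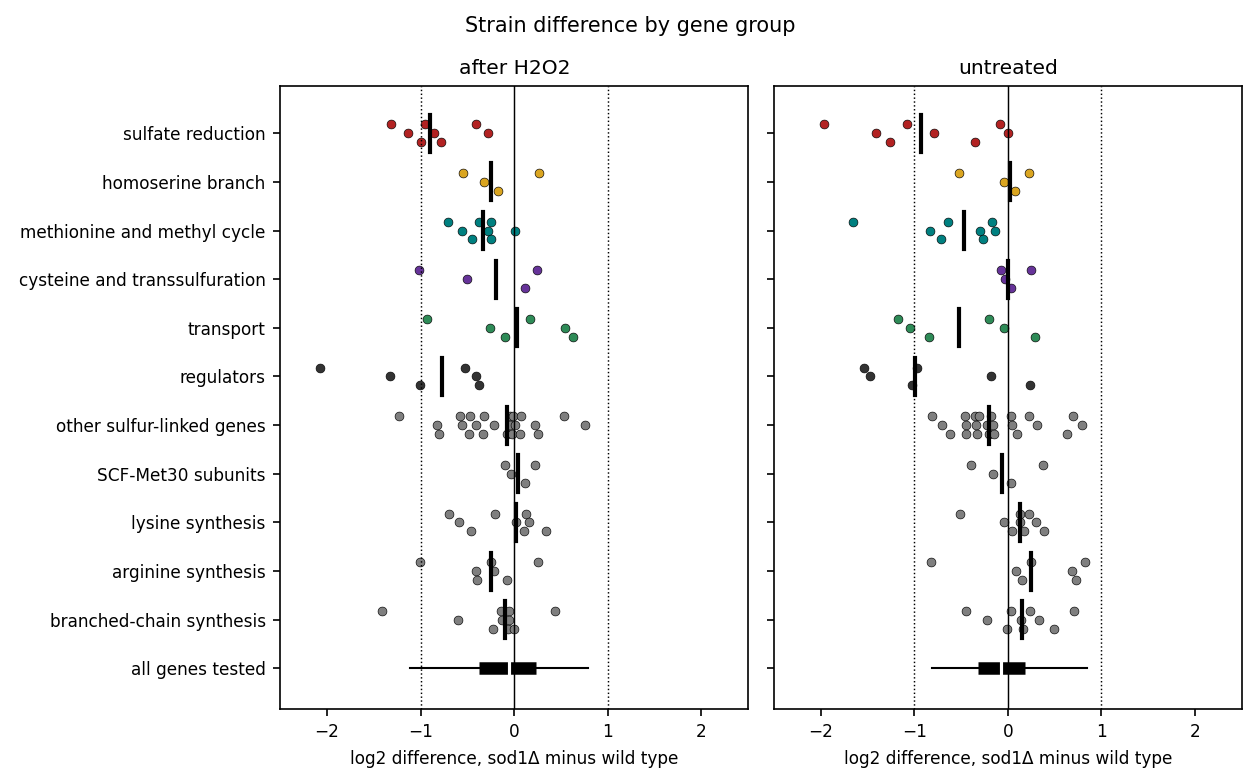
Log2 difference of sod1Δ minus wild type after H2O2 (left) and untreated (right) for each gene (points) by gene group, with group medians as black bars. Coloured points are members and grey points the other lists, and the lowest row shows all genes tested as the central 50% (thick line), the central 90% (thin line) and the median (gap); the sulfate reduction and regulator groups have medians of -0.90 and -0.77 after H2O2 and of -0.93 and -1.00 untreated.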

How the data were processed

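The deposited values are log2 signals, 1 per probe set and array, for 4 arrays. The submitters' processing notes name GCRMA, which corrects background from probe sequence and normalizes arrays to each other; its version is not given in the sources used here. RNA was amplified before labelling, per the labels' protocols. A table of probe annotation paired 5498 of 10928 probe sets with a single *S. cerevisiae* gene and 1746 with *S. pombe*. Of the rest, 3683 were unnamed here and 1 had several names. Symbols were matched by gene identifier to the RefSeq table (assembly R64), and probe sets of a gene were averaged.

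The floor of 2.31 is the 95th percentile of the *S. pombe* probe sets. Genes were compared where at least 1 array of the pair exceeded it, and a fold against a level at or under the floor is given as a lower bound. With 1 array per group no p-value was computed, and an additive model of strain and H2O2 was not fitted. Arrays give no counting depth, and their number limits the precision. Calculations used Python 3.11.15 with pandas 2.3.3, and counting was tested on simulated data. All 37 members are named, and genes of other lists are named where they passed 2-fold. The members and lists were chosen with earlier results of these data known. Alternatives were quantile normalization, median centring, 32 added to the linear signal, the brightest probe set, no floor, a floor of 6, and thresholds of 1.5-fold and 3-fold. Promoter motifs were planned and are not analysed here.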

Additional observations from a re-analysis of the deposited data

Results flagged for a closer look

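In 8 of the 36 members the H2O2 response was above 0 in one strain and below 0 in the other, where this held for 10.9% of all genes. The difference was not tested and rests on 1 array per group. *MUP1*, at -0.04 in wild type, was at 0.03 after quantile normalization and 0.01 after median centring, and then had the same sign in both strains. *MMP1*, at -0.01 in sod1Δ, was at 0.01 under both, and then had opposite signs. The response in sod1Δ minus that in wild type was 1.66 for *MHT1*, from 0.03 in sod1Δ and -1.63 in wild type. For *HOM3* it was -0.77, from -0.08 in sod1Δ and 0.69 in wild type. The regulator genes *MET4* and *CBF1* had -0.62 and -0.61, with responses of -0.12 and -0.43 in sod1Δ and of 0.49 and 0.17 in wild type. *MUP1* had 0.58, *MET3* had 0.46, *MET5* had 0.40 and *MET12* had -0.26, each from responses under 2-fold in both strains. Paired probe sets of other genes gave an SD of 0.45 for this difference.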

How the results depend on the processing

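No called member reversed its direction under any alternative. The median over the members lay between -0.41 and -0.37 for the treated strains, -0.33 and -0.29 for the untreated strains, 0.03 and 0.14 for H2O2 in sod1Δ, 0.08 and 0.27 for H2O2 in wild type, and 0.01 and 0.08 for the difference of responses. The counts that moved by over 1.5 times were these. Quantile normalization gave 3 members lower in treated sod1Δ than in treated wild type (without *MET1*, *MET31* and *STR3*) and 3 above 2-fold in the difference of responses (with *MET14* and *MMP1*). The shares of all genes there were 4.03% and 3.62%. Adding 32 to the linear signal gave 5 lower between the untreated strains, 3 lower with H2O2 in wild type and 0 above 2-fold in the difference of responses. The shares of all genes in that order were 1.33%, 13.9% and 1.19%. A floor of 6 gave 3 of 34 lower with H2O2 in wild type and 0 above 2-fold in the difference of responses, since it leaves out *MET8* and *MHT1*. All genes had 16.4% and 2.27% there. Reading the loss of induction as the increase over untreated, chosen after seeing the data, gave 2 members in each direction, against 0. At 1.5-fold, 12 of 36 members were lower and 1 higher in treated sod1Δ, where 15.1% and 9.02% of all genes were. In untreated sod1Δ 16 were lower, where 10.2% of all genes were. With H2O2 in wild type 10 were lower, close to the 26.2% of all genes. The difference of responses had 5 above and 6 below, where 7.18% and 11.5% of all genes were. At 3-fold, 1 of 36 was lower in treated and 2 in untreated sod1Δ, where 2.3% and 0.73% of all genes were. With H2O2 in sod1Δ 2 were higher and 1 lower, where 7.94% and 8.67% of all genes were. With H2O2 in wild type 4 were higher and 3 lower, close to the 9.18% and 8.94% of all genes. Over all genes, quantile normalization changed the treated strain comparison to 230 higher and 215 lower, against 164 and 338. No paired analysis was possible because each group has 1 array. Signals under about 3, as for *MET8*, *MHT1* and *MET17*, are close to background and limit their folds.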

Other observations

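Of the arginine synthesis genes, measured beside the sulfur genes, 0 of 7 were higher with H2O2 in sod1Δ and 6 of 7 in wild type, where 14.6% and 17.1% of all genes were. The values lay on either side of the 2-fold threshold, with medians of 0.67 in sod1Δ and 1.12 in wild type and a highest value of 0.93 in sod1Δ. In the difference of responses 1 of 7, *ARG3*, passed 2-fold, where 4.03% of all genes were lower. *ARG3*, which encodes ornithine carbamoyltransferase, had responses of 0.51 in sod1Δ and 1.64 in wild type. The response in sod1Δ minus that in wild type was below 0 for all 7 arginine genes and for all 10 branched-chain genes, where 52.1% of all genes were below 0. Their medians were -0.50 and -0.35. The difference was not tested, and the hybridization controls lay above 0 in it.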
